A study of Homo sapiens with 12 samples.

Results

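The genes that encode progesterone receptors were followed in U87 cells, a human glioblastoma line, across vehicle (V), 3α-THP, P4 and F. The 8 genes were chosen by name: PGR, the nuclear receptor, PGRMC1 and PGRMC2, the membrane components, and PAQR5 to PAQR9, the 5 membrane receptors of the PAQR family. On the array, 7 of the 8 had a transcript cluster that carried their symbol alone, each exactly 1, out of 18417 genes with a cluster of their own, and PGRMC1 was not analysed here. A transcript cluster is a set of probes along one gene, and its value is the log2 of their summarized signal. The cells had received 3α-THP (allopregnanolone, 10 nM), P4 (progesterone, 10 nM), F (finasteride, 100 nM) or V for 72 h, after a change to medium without phenol red and with charcoal-stripped serum, which removes most steroids. The labels give the DMSO of V as 0.1% in one field and 10% in another, and the methods give 0.1%. Each treatment had 3 arrays, labelled as biological replicates 1 to 3, which makes 12 arrays in all. The array methods do not say whether these came from separate cultures, and p-values measure the spread between the arrays, which may be partly technical. All arrays come from one established cell line, and V was the control of each steroid.

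Progesterone acts through receptors of unrelated structure. PGR is a transcription factor of the nuclear receptor family that binds DNA once it holds the hormone. The PAQR receptors are membrane proteins that span the membrane several times and couple to G proteins, and mPR, for membrane progesterone receptor, is their other name. PGRMC1 and PGRMC2 are heme-binding proteins of the membrane-associated progesterone receptor (MAPR) family, which do not resemble either class. 3α-THP is formed from P4 by reduction of ring A, first by 5α-reductase and then by 3α-hydroxysteroid dehydrogenase, and F, a steroid-like compound with a nitrogen in its ring A, inhibits 5α-reductase. 3α-THP binds PGR poorly and is a ligand of PAQR receptors.

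The identity of the cells was checked on marker genes. VIM, CD44, FN1 and CHI3L1, which mesenchymal glioblastoma lines express strongly, had mean log2 signals of 12.5, 11.8, 13.2 and 11.7, and 4 of the 10 glioblastoma and astrocyte markers lay above 6.37, the median of the tested clusters. The astrocyte markers GFAP (6.17), S100B (3.77) and AQP4 (2.93) and the glioma stem cell markers SOX2 (4.09), OLIG2 (5.58) and NES (5.96) lay below it. Of 14 measured markers of neurons, microglia, oligodendrocytes and endothelium, the vesicle fusion gene SNAP25 (8.62) and the microglial growth factor receptor gene CSF1R (6.73) lay above it. The mean signal over the glioblastoma and astrocyte list ranged from 7.74 to 7.86 on the V arrays, 7.69 to 7.79 with 3α-THP, 7.73 to 7.82 with P4 and 7.76 to 7.77 with F. Array medians over the tested clusters were within 6.35 and 6.40. Arrays with the same replicate number deviated together from their treatment means, so values are also given within each number.

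None of the 7 genes changed by more than 1.5-fold at an unadjusted p below 0.05 (limma), the threshold named in the methods, with 3α-THP, P4 or F against V. Of the 21214 clusters with a gene name, which were all tested, 0.679%, 0.0236% and 0.396% passed it. At an unadjusted p under 0.05 alone, 1 of the 7 genes, PGRMC2, differed with 3α-THP, beside 7.34% of the tested clusters, and none with P4 or F, beside 1.82% and 4.69%. With the replicate number as a factor of the fit PGRMC2 was again the 1 gene with 3α-THP, beside 13.4% of the clusters, and there was none with P4 or F, beside 3.8% and 8.54%. With the analysis of variance named in the methods the counts were also 0 at the threshold. After Benjamini-Hochberg adjustment over all of them none of the 7 genes passed with any steroid (limma), beside 0.00471% of the clusters with 3α-THP, 0% with P4 and 0.00471% with F. The number of arrays limits the precision, since each mean rests on 3. In RNA from whole cultures, fewer cells with a transcript and less of it per cell cannot be told apart.

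**Figure D1:**
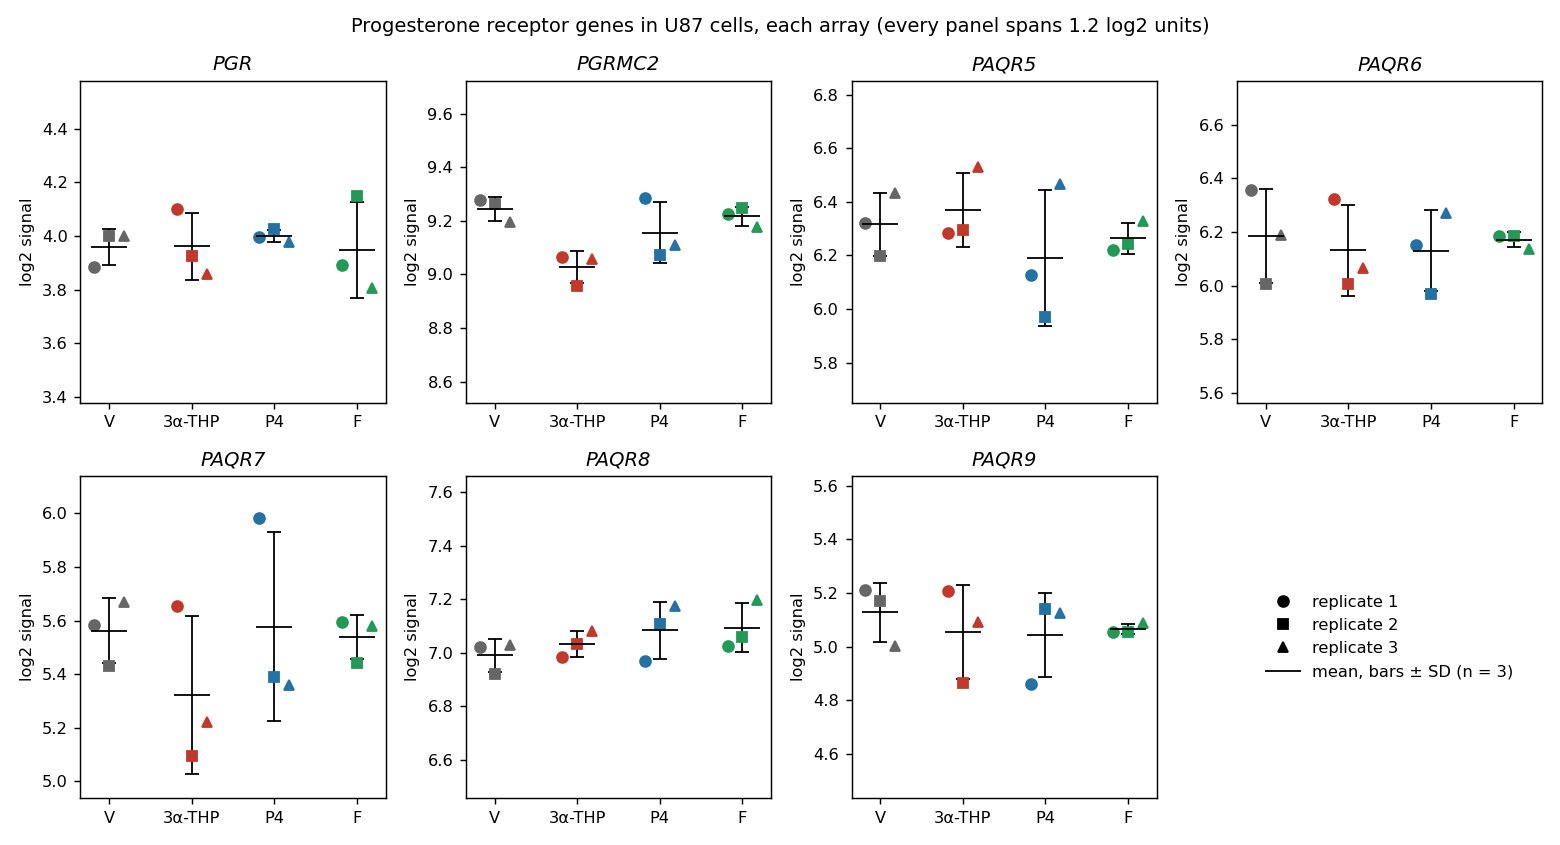
The log2 signal of each progesterone receptor gene (y axis) on each of the 12 arrays by treatment (x axis), with symbols for the replicate number, the mean as a line and bars of 1 SD. PGRMC2 with 3α-THP, at 8.96 to 9.07, lies below all V arrays, at 9.19 to 9.28, and treatments overlap in the other 6 genes.

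PGR, the classical receptor that turns hormone binding into transcription, had a low signal that overlapped between all treatments. On the V arrays its log2 signal was 3.88, 4.0 and 4.0, and with 3α-THP it was 4.10, 3.93 and 3.86. With P4 it was 4.0, 4.02 and 3.98, and with F 3.89, 4.15 and 3.81. The highest and the lowest of the 12 arrays were both F arrays, and the P4 arrays lay closest together. Only 13.2% of the tested clusters were dimmer than PGR, so its signal is close to the floor of the array and a change in its transcript could be understated. The order of the means was P4 (4.0 ± 0.023, SD, n = 3), 3α-THP (3.96 ± 0.13), V (3.96 ± 0.067) and F (3.95 ± 0.18), and no neighbors differed beyond their SD. The log2 difference from V was 0.0017 with 3α-THP (95% interval -0.21 to 0.22), 0.040 with P4 (-0.17 to 0.25) and -0.011 with F (-0.23 to 0.20). These intervals cover folds of 0.856 to 1.19 over the 3 compounds.

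PGRMC2, a membrane-bound heme protein that takes part in intracellular heme transport, was the only one of the 7 genes whose arrays with a steroid lay apart from the V arrays. Its log2 signal was 9.28, 9.26 and 9.19 with V and 9.07, 8.96 and 9.06 with 3α-THP. It was 9.29, 9.07 and 9.11 with P4 and 9.23, 9.25 and 9.18 with F. The 3 arrays with 3α-THP were the lowest of all 12, the highest of them lying just below the lowest P4 array, and the F arrays lay within the span of V except for 1 that was slightly lower. The mean was 9.24 ± 0.044 (SD, n = 3) with V, 9.22 ± 0.036 with F, 9.16 ± 0.11 with P4 and 9.03 ± 0.060 with 3α-THP. In that order V and F, and F and P4, did not differ beyond their SD, whereas the step from P4 to 3α-THP (0.13) exceeded it.

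With 3α-THP PGRMC2 was lower than with V by a log2 difference of -0.22 (SE 0.080, 95% interval -0.39 to -0.046), a fold of 0.86. The unadjusted p was 0.017 and the adjusted p 0.607 (limma), and the fold stayed below the 1.5 of the methods. Among the tested clusters 4.09% were lower at this unadjusted threshold, and in 11.3% the arrays of 3α-THP and V did not overlap, a separation seen in 1 of the 7 genes. The difference was negative within each replicate number, at -0.21, -0.30 and -0.14 for numbers 1, 2 and 3. How many tested clusters had the same sign in each number was not counted. Without 3α-THP replicate 2 the difference of PGRMC2 was -0.18 (unadjusted p = 0.0637), and without the 4 arrays of number 2 it was -0.18 (unadjusted p = 0.119). In the test of any difference among the 4 treatments PGRMC2 had an unadjusted p of 0.0712, and 0.0496 when the replicate number was a block (limma), where 3.81% and 9.02% of the tested clusters had one under 0.05. The other 6 genes had an unadjusted p of 0.431 to 0.957 in this test, and of 0.171 to 0.948 with the replicate block (limma).

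PGRMC2 is a bright cluster, brighter than 91.7% of those tested, and bright clusters tended to be lower with 3α-THP. In the brightest 10% of the tested clusters, which was looked at after the value of PGRMC2 was seen, the median log2 difference of 3α-THP from V was -0.054, beside -0.027 in all tested clusters. Of these bright clusters 7.3% were lower at an unadjusted p under 0.05, and 8.11% had a difference at or below that of PGRMC2. The part of this shift in the value of PGRMC2 was not tested. Over the 12 arrays the genes with the pattern most like that of PGRMC2 were the translation elongation factor gene EEF2 (Pearson r = 0.947), the stress-induced mTOR inhibitor gene DDIT4 (r = 0.935) and the arginine synthesis gene ASS1 (r = 0.92).

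Against V, PGRMC2 had a log2 difference of -0.088 with P4 (95% interval -0.26 to 0.084) and of -0.027 with F (-0.20 to 0.15). Within the replicate numbers 1, 2 and 3 the difference with P4 was 0.0084, -0.19 and -0.084, and with F -0.052, -0.014 and -0.016. Neither passed the test, and the arrays overlapped. None of the 7 genes had arrays apart from V with P4 or F, beside 5.44% and 9.11% of the tested clusters.

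The sequence before the start of PGRMC2 is given because cyclic AMP and CREB lie downstream of membrane receptors and this gene had the lowest unadjusted p of the 7. It is the 250 bases upstream on the minus strand, chr4:128287814-128288063 (GRCh38.p14, RefSeq), 5′ to 3′, with the match to the core of the cyclic AMP response element (CGTCA, the reverse complement of TGACG) in capitals. PAQR6 is shown beside it, also on the minus strand, chr1:156248057-156248306, because its window was the only one among the matched genes with the core of the hormone response element (TGTTCT, the reverse complement of AGAACA), in capitals.
PGRMC2: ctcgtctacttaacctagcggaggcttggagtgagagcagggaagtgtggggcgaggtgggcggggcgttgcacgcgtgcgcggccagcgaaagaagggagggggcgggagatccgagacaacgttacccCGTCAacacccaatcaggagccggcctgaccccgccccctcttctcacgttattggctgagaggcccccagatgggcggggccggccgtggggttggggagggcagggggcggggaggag
PAQR6: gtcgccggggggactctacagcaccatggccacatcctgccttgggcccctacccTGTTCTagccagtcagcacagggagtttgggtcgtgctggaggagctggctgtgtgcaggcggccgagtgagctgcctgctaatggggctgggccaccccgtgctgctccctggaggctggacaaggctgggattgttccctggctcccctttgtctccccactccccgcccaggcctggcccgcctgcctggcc

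Windows of 250 bases before to 50 after the start were found for 5 of the 8 genes, PGR with 3 windows, PAQR9 with 2, and PGRMC1, PGRMC2 and PAQR6 with 1 each. On both strands TGACG was found once in PGRMC2, at -120 to -116 from the start, and in PGR, where 2 overlapping windows each held 2 matches. It occurs in 24.5% of 34943 windows. AGAACA was found in PAQR6 alone, at -195 to -190, and in 14.8% of the windows, and neither the full hormone response palindrome, which contains AGAACA, nor the full element TGACGTCA, which contains TGACG on either strand, was found in any of the 8 windows. These elements occur in 0.00286% and 1.84% of all windows. The matches describe letters in these windows and not binding.

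The PAQR receptors, which pass progestin signals through G proteins, showed no difference from V past the threshold or at an unadjusted p under 0.05 with any steroid. PAQR8 (mPRβ) had a log2 signal of 7.02, 6.92 and 7.03 with V, 6.98, 7.03 and 7.08 with 3α-THP, 6.97, 7.11 and 7.18 with P4 and 7.03, 7.06 and 7.20 with F. The lowest array was a V array and the highest an F array, with overlap between all treatments. Its mean was 6.99 ± 0.061 (SD, n = 3) with V and 7.09 ± 0.091 with F. The log2 difference was 0.10 with F (95% interval -0.076 to 0.28), 0.093 with P4 (-0.087 to 0.27) and 0.043 with 3α-THP (-0.14 to 0.22). PAQR8 was the steadiest of the 7 genes, with an SD over the 12 arrays of 0.081, and 8.76% of the tested clusters had a smaller one.

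PAQR7 (mPRα), the first of these receptors tied to rapid progestin effects, was the most variable. Its log2 signal was 5.58, 5.43 and 5.67 with V, 5.66, 5.09 and 5.22 with 3α-THP, 5.98, 5.39 and 5.36 with P4 and 5.59, 5.44 and 5.58 with F. Replicates 2 and 3 of 3α-THP were the lowest of the 12 arrays and replicate 1 of P4 the highest. The mean with 3α-THP was 5.32 ± 0.29 (SD, n = 3), beside 5.56 ± 0.12 with V, and the log2 difference was -0.24 (95% interval -0.60 to 0.13, unadjusted p = 0.183, limma). It was 0.071, -0.34 and -0.45 within the replicate numbers 1, 2 and 3. Without 3α-THP replicate 1 it was -0.40 (unadjusted p = 0.0302), below 1.5-fold, and without 3α-THP replicate 2 it was -0.12 (unadjusted p = 0.506). With P4 the difference from V was 0.015 (-0.35 to 0.38) and with F -0.023 (-0.39 to 0.34). The SD of PAQR7 over the 12 arrays was 0.23, and 90.4% of the tested clusters had a smaller one.

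PAQR5 (mPRγ) had a log2 signal of 6.32, 6.20 and 6.43 with V, 6.28, 6.29 and 6.53 with 3α-THP, 6.13, 5.97 and 6.47 with P4 and 6.22, 6.24 and 6.33 with F. Replicate 3 was the highest array of each treatment, and the P4 arrays spread the most. The mean with P4 was 6.19 ± 0.25 (SD, n = 3), beside 6.32 ± 0.12 with V, and the log2 difference was -0.13 (95% interval -0.39 to 0.14). Without P4 replicate 3 it was -0.27 (unadjusted p = 0.0314, limma), and without P4 replicate 2 it was -0.018 (unadjusted p = 0.883). The differences with 3α-THP and F were 0.053 (-0.21 to 0.32) and -0.053 (-0.32 to 0.21).

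PAQR6 (mPRδ), the receptor of this family for which a high affinity of 3α-THP is known, had a log2 signal of 6.36, 6.01 and 6.19 with V and 6.32, 6.01 and 6.07 with 3α-THP. It was 6.15, 5.97 and 6.27 with P4 and 6.19, 6.19 and 6.14 with F. The F arrays lay close together, while the other treatments spanned nearly the same range. The log2 difference from V was -0.052 with 3α-THP (95% interval -0.30 to 0.19), -0.053 with P4 (-0.30 to 0.19) and -0.014 with F (-0.26 to 0.23). Leaving out V replicate 1 turned all 3 values positive, at 0.034, 0.033 and 0.073.

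PAQR9 (mPRε) had a log2 signal of 5.21, 5.17 and 5.00 with V, 5.21, 4.86 and 5.09 with 3α-THP, 4.86, 5.14 and 5.13 with P4 and 5.06, 5.05 and 5.09 with F. The lowest arrays were replicate 1 of P4 and replicate 2 of 3α-THP, and the F arrays were again the closest together. The log2 difference from V was -0.073 with 3α-THP (95% interval -0.30 to 0.16), -0.086 with P4 (-0.32 to 0.14) and -0.062 with F (-0.29 to 0.17). In the order of treatment means, no neighbors of PAQR5, PAQR6, PAQR7, PAQR8 or PAQR9 differed beyond the larger of their SDs.

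**Figure D2:**
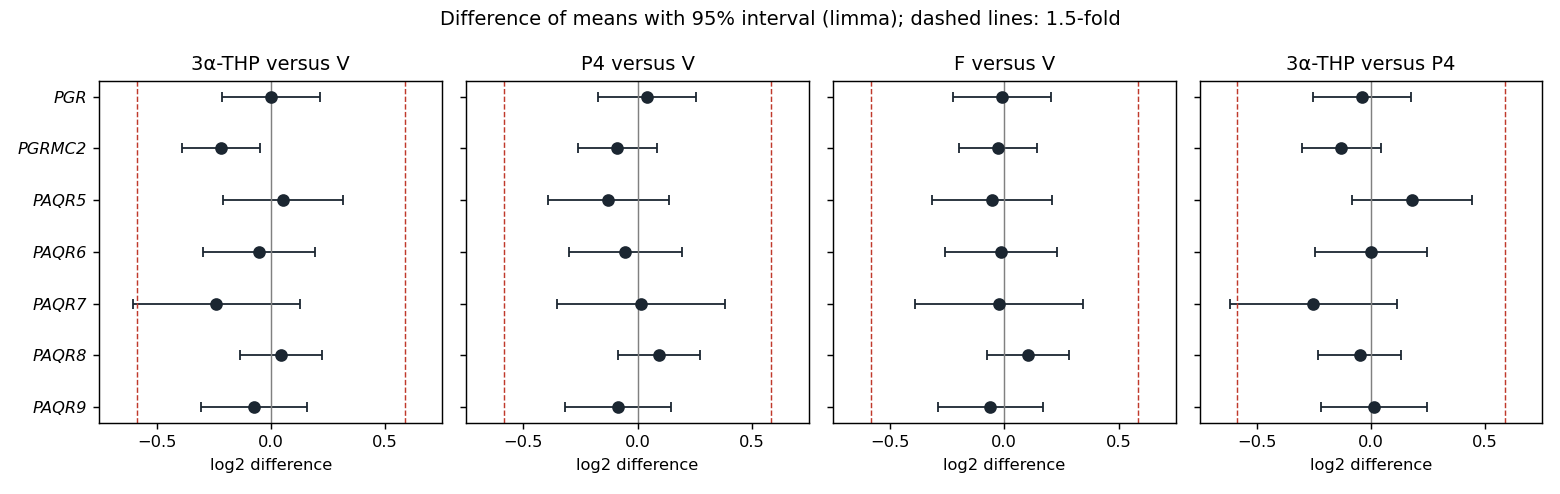
The difference of mean log2 signal (x axis) of each gene (y axis) in 4 comparisons, as points with 95% intervals from limma, and the 1.5-fold threshold as dashed lines. The interval of PGRMC2 with 3α-THP against V (-0.39 to -0.046) is the only one without 0, and the intervals of PAQR7 with 3α-THP cross the lower dashed line.

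The intervals set a bound on the size of change in signal that these arrays leave possible. The signals of PGR, PAQR7 and PAQR9 are dim, and a change in their transcripts could be understated. Against V all 7 genes had a 95% interval within 1.5-fold with P4 and with F, and 6 of the 7 did with 3α-THP. The exception was PAQR7, whose lower bound was a fold of 0.658. With the replicate number as a factor its log2 interval was -0.50 to 0.022, within 1.5-fold. Without that factor the intervals over the 7 genes reached from a fold of 0.763 to 1.30 with P4 and from 0.764 to 1.27 with F. With 3α-THP they reached from 0.658 to 1.24. The share of all tested clusters with an interval within 1.5-fold was not counted, so these counts do not set the 7 genes apart. With 3α-THP 3 of the 7 log2 differences were positive, with P4 3 and with F 1, beside 41.1%, 43.9% and 41.8% of the tested clusters. The medians over the 7 genes were -0.052, -0.053 and -0.023, and those over all tested clusters -0.027, -0.013 and -0.021. The 3 comparisons share the V arrays.

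3α-THP and P4 differ by the reduction of ring A and were given at the same dose and for the same time, so they were compared directly in the 7 genes. None passed the threshold (limma), which 0.25% of the tested clusters did, and none had an unadjusted p under 0.05, which 3.96% had. With the replicate number as a factor there was also none, beside 9%, and none after adjustment, beside 0%. Of the 7 differences 3 were positive, beside 44.8% of the tested clusters. PGRMC2 was lower with 3α-THP by -0.13 on the log2 scale (95% interval -0.30 to 0.042, unadjusted p = 0.127), and its arrays did not overlap, as in 8.22% of the tested clusters. The difference was -0.22, -0.11 and -0.054 within the replicate numbers 1, 2 and 3. PAQR7 differed by -0.25 (-0.62 to 0.11) and was lower with 3α-THP in each number, at -0.33, -0.30 and -0.14. PAQR5 differed by 0.18 (-0.084 to 0.44) and was higher with 3α-THP in each number, at 0.16, 0.32 and 0.061. The share of tested clusters with the same sign in each number was not counted. Leaving out 1 array moved the differences of PGRMC2, PAQR7 and PAQR5. PGRMC2 differed by -0.065 without P4 replicate 1 (unadjusted p = 0.444), which was the highest of the P4 arrays. PAQR7 differed by -0.42 without 3α-THP replicate 1 (unadjusted p = 0.0256) and by -0.049 without P4 replicate 1 (unadjusted p = 0.741). PAQR5 differed by 0.32 without P4 replicate 3 (unadjusted p = 0.013) and by 0.071 without P4 replicate 2 (unadjusted p = 0.574). The other 4 genes differed by -0.050 to 0.013, with 95% intervals that reached from -0.25 to 0.25. Thus a difference of 1.5-fold in signal between the compounds lay outside the interval of 6 of the 7 genes. The exception was PAQR7, and with the replicate number as a factor its interval was -0.51 to 0.0068, within 1.5-fold. In the dim genes PGR, PAQR7 and PAQR9 the transcripts could differ by more than the signal. Smaller differences were not resolved. Here too the share of all tested clusters with an interval within 1.5-fold was not counted. F was given at 100 nM, and its values stand beside those of 3α-THP and P4 without a comparison.

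The replicate number moved 4 of the 5 PAQR genes more than the treatment did. It accounted for 59.4% of the sum of squares over the 12 arrays in PAQR5, 52.7% in PAQR6, 46.9% in PAQR7 and 44.1% in PAQR8, beside 20.9%, 3.82%, 21.4% and 28.9% for the treatment. PAQR5 had a mean log2 signal of 6.44 on the arrays of number 3, beside 6.24 and 6.18 on those of numbers 1 and 2. PAQR7 had 5.70 on those of number 1, beside 5.34 and 5.46. In PGRMC2 the order was the other way, with 68.1% for the treatment and 13.3% for the number. In PGR and PAQR9, 71.9% and 90.3% fell to neither. The medians over all tested clusters were 28.7% for the number and 20.7% for the treatment.

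**Figure D3:**
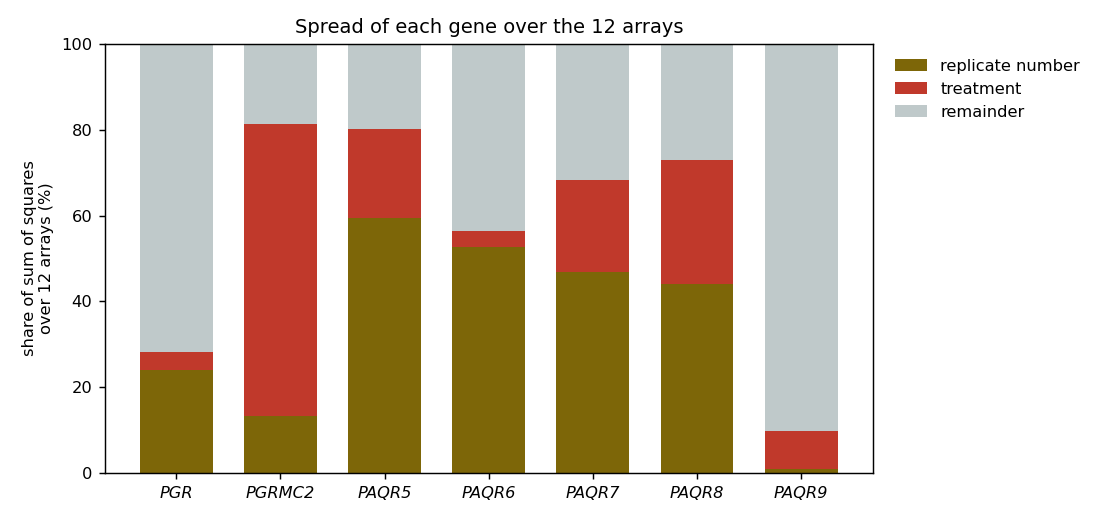
Shares of the sum of squares of each gene's log2 signal over the 12 arrays (y axis, percent) that fall to the replicate number, the treatment and the remainder. The treatment takes 68.1% in PGRMC2 and at most 28.9% in the other 6 genes.

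For each receptor gene the 3 other genes with the highest Pearson r over the 12 arrays were taken as those most alike in pattern. For PAQR7 they were the zinc transporter gene SLC39A11 (r = 0.939), the protocadherin gene PCDHB16 (r = 0.927) and PRUNE1 (r = 0.925). For PAQR9 they were led by TMOD1, an actin filament capping protein (r = 0.93), for PAQR5 by the cytokine gene TSLP (r = 0.924) and for PAQR6 by LINC02076 (r = 0.921). PGR reached 0.847 with the B-cell receptor component CD79B and PAQR8 0.805 with LSMEM1. These values are a description over arrays that share replicate numbers, selected among all genes, and without the replicate means the r with TSLP was 0.805.

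The other genes of the pathway were read from 7 lists of 67 genes, of which 57 had a cluster of their own. None passed the threshold of the methods in any comparison (limma), and at an unadjusted p under 0.05 2 did with 3α-THP, 0 with P4 and 1 with F, where 7.34%, 1.82% and 4.69% of the tested clusters did. Of the 57 log2 differences 16 were positive with 3α-THP, 13 with P4 and 20 with F, with medians of -0.061, -0.029 and -0.011. Over all tested clusters 41.1%, 43.9% and 41.8% were positive, and the medians were -0.027, -0.013 and -0.021. In the blocked fit 10 of the 57 had an unadjusted p under 0.05 with 3α-THP, 3 of them higher and 7 lower, 1 with P4 and 3 with F (limma), where 13.4%, 3.8% and 8.54% of the tested clusters did. Between 3α-THP and P4 the number was 2 without the block and 3 with it, beside 3.96% and 9% of the tested clusters. With the analysis of variance named in the methods the counts at the threshold were 0 as well.

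NRIP1, a co-repressor that binds nuclear receptors once they hold their ligand, had the smallest p of the pathway genes with 3α-THP without the block. Its log2 signal was 7.22, 7.82 and 7.34 with V, 7.70, 8.11 and 7.90 with 3α-THP, 7.45, 7.65 and 7.67 with P4 and 7.81, 7.84 and 7.85 with F. V replicate 2 lay within the range of 3α-THP, and the other V arrays lay below all arrays with 3α-THP and F. The log2 difference was 0.44 with 3α-THP (SE 0.145, unadjusted p = 0.00933, adjusted p = 0.541, limma), 0.37 with F (unadjusted p = 0.0238) and 0.13 with P4 (unadjusted p = 0.395). Between 3α-THP and P4 it was 0.32 (unadjusted p = 0.0488, adjusted p = 0.999). With the block the unadjusted p against V was 0.00103 with 3α-THP, 0.00365 with F and 0.243 with P4 (limma). Without V replicate 2 the difference with 3α-THP was 0.62 and passed the threshold (unadjusted p = 0.00022, adjusted p = 0.0881). The other 8 measured co-regulators had log2 differences of -0.16 to -0.015 with 3α-THP, the arginine methyltransferase gene CARM1 having the lowest.

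Among 6 other members of the PAQR family, ADIPOR1, a receptor for adiponectin, had a log2 signal of 10.92, 10.87 and 10.92 with 3α-THP. With V it had 10.99, 11.10 and 11.18, without overlap, as in 11.3% of the tested clusters. The log2 difference of ADIPOR1 was -0.18 (unadjusted p = 0.0447, adjusted p = 0.674, limma), and that of ADIPOR2, the other adiponectin receptor, was -0.25 (unadjusted p = 0.075). Of the MAPR family, the secreted neudesin gene NENF had -0.061 and CYB5D2 -0.11. In the list of PGRMC partners and sterol regulation, 6 of 9 genes were measured, and the sterol demethylase gene CYP51A1 had -0.20 (unadjusted p = 0.105, and 0.0325 with the block) and INSIG1, which holds back sterol synthesis, -0.15. The 10 measured chaperones of steroid receptors ranged from -0.30 to 0.11, with the HSP40 gene DNAJB1 at -0.30 (unadjusted p = 0.061, and 0.0126 with the block) and the immunophilin FKBP4 at -0.15. Like PGRMC2, ADIPOR1, CYP51A1, INSIG1 and the G protein gene GNAI2 belong to the brightest 10% of the tested clusters, which tended to be lower with 3α-THP. The part of this shift in their values was not tested.

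Of the other nuclear steroid receptors 4 of 5 were measured. The mineralocorticoid receptor gene NR3C2 had a log2 signal of 5.94, 5.98 and 6.15 with V, 6.07, 6.32 and 6.37 with 3α-THP and 5.89, 5.56 and 6.12 with P4. It differed between 3α-THP and P4 by 0.40 (unadjusted p = 0.0129, adjusted p = 0.999, limma), with overlapping arrays, and from V by 0.23 with 3α-THP (unadjusted p = 0.121, and 0.0401 with the block). The glucocorticoid receptor gene NR3C1 had -0.050. 

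In the list of G proteins, adenylyl cyclases and kinases downstream of membrane receptors, 20 of 21 genes were measured and ranged from -0.37 to 0.21 with 3α-THP, with a median of -0.084. GNAI2, an inhibitory G protein subunit, had -0.17 (unadjusted p = 0.0828, and 0.0389 with the block) and PRKACB, a catalytic subunit of protein kinase A, 0.21 (unadjusted p = 0.0846, and 0.0235 with the block). The lowest value was that of ADCY3, an adenylyl cyclase, which is given because of its p with the block and was chosen after its values were seen. Its log2 signal was 8.08, 8.10 and 7.60 with V, 7.90, 7.50 and 7.29 with 3α-THP, 8.03, 7.81 and 7.39 with P4 and 7.94, 7.82 and 7.31 with F. Replicate 3 was the lowest array of each treatment, and within each number V was the highest of the 4 treatments. The difference with 3α-THP was -0.37 (unadjusted p = 0.109, limma), and its unadjusted p with the replicate block was 0.000925, where the fold also stayed below 1.5. With F the difference was -0.24 (unadjusted p = 0.28, and 0.0147 with the block, limma). With P4 it was -0.18 (unadjusted p = 0.407, and 0.0516 with the block, limma).

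**Figure D4:**
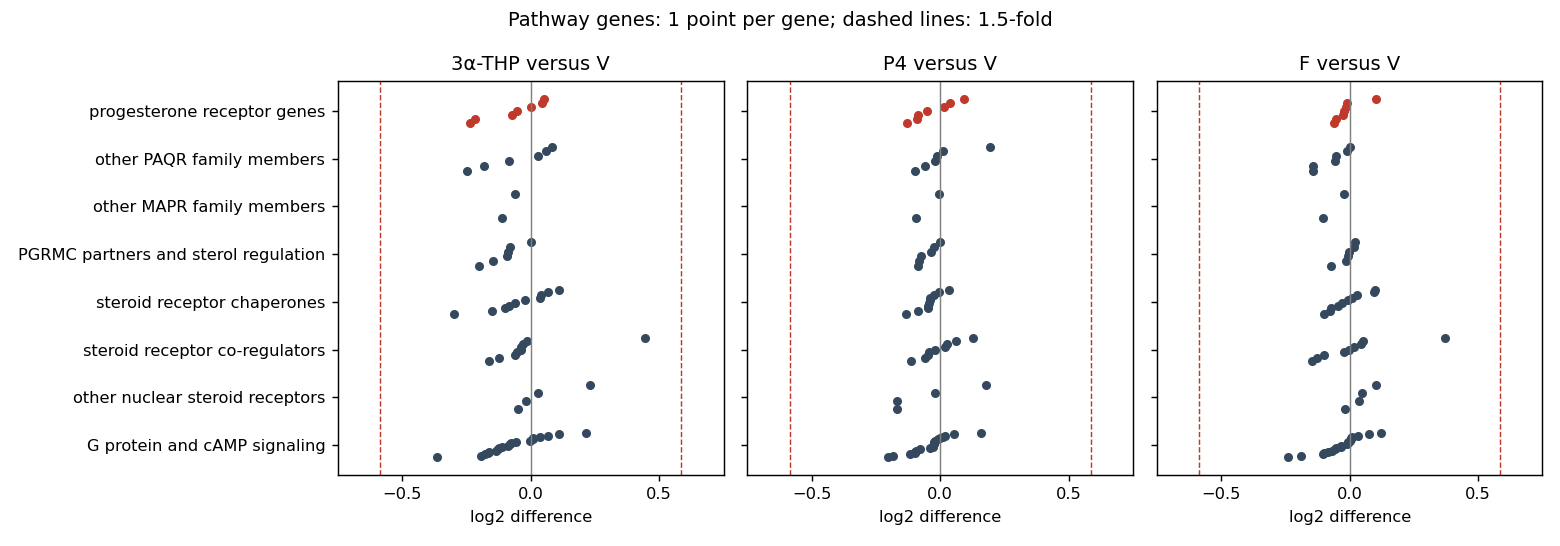
The log2 difference from V (x axis) of each measured gene, as 1 point, for the progesterone receptor genes and the 7 lists of pathway genes (y axis) with 3α-THP, P4 and F, with the 1.5-fold threshold as dashed lines. All points lie between the dashed lines, and NRIP1 stands apart among the co-regulators at 0.44 with 3α-THP and 0.37 with F.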

How the data were processed

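RNA from U87 cells was labeled and hybridized to 12 Affymetrix Human Gene 1.0 ST arrays. The authors deposited log2 values per transcript cluster, summarized in Expression Console 1.4 (submitters' processing notes) and normalized between arrays. The methods name quantile normalization for the authors' first analysis and robust multiarray analysis (RMA) for a second one in R, without saying which made the deposited table. Of 33297 clusters 21214 carry a gene name (platform annotation) and entered one linear model with the 4 treatments (limma 3.58.1, R 4.3.3), unpaired as in the methods. All clusters of a gene entered the model, and a gene with several is described by its brightest. p-values are two-sided. Deviations from the treatment means correlated at 0.132 to 0.631 in all 18 pairs that share a replicate number, so the numbers pair the arrays. A blocked value is given where it changes a call of a gene described singly, and in a few other places. The adenylyl cyclase genes ADCY2 and ADCY9, not described singly, also had comparisons with an unadjusted p under 0.05 (limma) only with the block. The script was tested on simulated data. The genes, the lists and the tests were chosen with earlier results of these data known. Named pathway genes are those past the threshold and the 2 of each list with the smallest p with 3α-THP. Alternatives changed the block, the arrays, the test, the normalization, the clusters tested, the variance prior and array weights. Promoter windows come from RefSeq (GRCh38.p14).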

Additional observations from a re-analysis of the deposited data

How the results depend on the processing

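No member passed the threshold of the methods under any alternative in any of the 4 comparisons. In the fit described above 1 gene, PGRMC2, had an unadjusted p under 0.05 without a fold, with 3α-THP against V. Single-gene comparisons with such a p only in an alternative numbered 4, each on leaving out 1 array. They were PAQR7 with 3α-THP and PAQR5 with P4 against V, and both genes between 3α-THP and P4. Of 624 values of single genes under the alternatives 36 had the other sign, none of them at an unadjusted p under 0.05. In the test among the 4 treatments 1 of the 7 genes, PGRMC2, had an unadjusted p under 0.05 in some alternatives. These were the replicate block, the random block, the unpaired variance analysis and the fit without P4 replicate 1. Among the fits without 1 array the count was thus 0 to 1. The adjusted p of PGRMC2 was 0.551, 0.649, 0.9999 and 0.9999 in that order (limma, except for the variance analysis). With the replicate block 9.02% of the tested clusters had an unadjusted p under 0.05. For the other alternatives this share was not counted, so these calls do not set PGRMC2 apart. Leaving out 1 array gave 0 to 1 pathway genes with 3α-THP against V, the 1 being NRIP1 without V replicate 2. The replicate block changed no other call at the threshold. Leaving out dim clusters kept 2 of the 7 genes, PGRMC2 and PAQR8, and 45 of the 57 pathway genes. No gene had a further cluster of its own to try. The signals of PGR, PAQR9 and PAQR7 were brighter than only 13.2%, 26.2% and 33.3% of the tested clusters, which limits what could be seen there.

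With quantile normalization the sign turned for PGR with 3α-THP (-0.014) and PAQR7 with P4 (-0.0014). With array weights it turned for PGR (-0.044) and PAQR9 (0.018) with 3α-THP, PAQR7 with P4 (-0.032), PAQR9 with F (0.0051) and PAQR6 between 3α-THP and P4 (-0.018). Without the 4 arrays of number 2 it turned for PAQR9 with 3α-THP (0.044) and PAQR6 between 3α-THP and P4 (-0.016). The cause was not tested. Without 1 array, the values of genes whose sign turned ranged as follows. With 3α-THP they ranged from -0.068 to 0.054 for PGR, -0.027 to 0.11 for PAQR5, -0.15 to 0.034 for PAQR6 and -0.15 to 0.022 for PAQR9. With P4 they ranged from -0.14 to 0.033 for PAQR6, -0.19 to 0.12 for PAQR7 and -0.15 to 0.0049 for PAQR9. With F they ranged from -0.11 to 0.060 for PGR, -0.11 to 0.0042 for PAQR5, -0.10 to 0.073 for PAQR6 and -0.088 to 0.031 for PAQR7. Between 3α-THP and P4 they ranged from -0.11 to 0.014 for PGR, -0.095 to 0.071 for PAQR6 and -0.078 to 0.11 for PAQR9.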
